A study of Mus musculus with 2 samples.

Results

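The cells described here are the macrophages of the embryonic mouse face, a rare population found in 10x Genomics 3' v2 single-cell libraries of the lambdoid junction, the place where the nasal and maxillary prominences of the upper face meet. The macrophages were chosen by raw UMI counts of 5 genes: a cell was taken when it held 3 or more UMIs (unique molecular identifiers, each standing for a captured mRNA molecule) of C1qa, C1qb and C1qc together, at least 1 UMI of Tyrobp, no more than 1 UMI of the epithelial gene Epcam and no more than 10% of its UMIs in mitochondrial genes. This gave 62 macrophages among 14860 barcodes, or among 14596 cells within the mitochondrial limit, and all 14534 remaining cells served as the cells they were set against. The embryos were at stage E11.5, and both libraries carry the strain label C57BL/6J. The Crect; ROSA26-lacZ library (called Crect from here on) came from embryos with Crect, a Cre recombinase transgene active in ectoderm, together with the lacZ reporter allele of ROSA26, and it held 25 macrophages among 6687 cells. The wild-type library, whose genotype label names no transgene, held 37 macrophages among 7909 cells. Each library was a single pool of junctions from 4 to 5 embryos, dissociated with trypsin, so there was 1 library per genotype and no test between genotypes. Differences between embryos, litters and library preparation cannot be told apart from genotype.

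Macrophages are phagocytes that settle in embryonic tissues long before bone marrow exists, in mice largely from progenitors of the yolk sac. They engulf dying cells and digest them in lysosomes, sense damage and complement fragments, and release chemokines and growth factors. Their survival depends on the receptor encoded by Csf1r and their identity on the transcription factor PU.1, encoded by Spi1. The A, B and C chains encoded by C1qa, C1qb and C1qc assemble into C1q, the recognition protein of the classical complement pathway, which in mice is made mainly by macrophages. Tyrobp (also called DAP12) is an adaptor through which receptors such as Trem2 signal.

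The libraries held 127765199 UMIs over 6894 Crect barcodes and 126638790 UMIs over 7966 wild-type barcodes, with medians of 17293 UMIs per Crect and 14055.5 UMIs per wild-type barcode. Macrophages held a median of 23025 UMIs per cell in the Crect library (7141 to 58339) and of 15046 UMIs in the wild-type library (5507 to 50072), against medians of 17565 UMIs and 14110 UMIs in the other cells of those libraries. Their sums were 718580 UMIs for the Crect macrophages and 653961 UMIs for the wild-type macrophages, and levels below are CPM of these sums, the UMIs of a gene per 1000000 UMIs, with intervals that cover counting error only. The libraries shared 76 barcode sequences, none of which was a macrophage in both. Doublets were not removed, and RNA set free during dissociation can put UMIs of a macrophage gene into other cells and the reverse.

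The C1q genes and Tyrobp chose the cells, so their values are a description. C1qa had 1, 25 and 120 UMIs (lowest, median and highest) per Crect macrophage and 1, 20 and 77 UMIs per wild-type macrophage. For C1qb the values were 3, 44 and 106 UMIs (lowest, median and highest) per Crect macrophage and 8, 39 and 108 UMIs per wild-type macrophage, and for C1qc 1, 38 and 93 UMIs (lowest, median and highest) per Crect macrophage and 4, 31 and 93 UMIs per wild-type macrophage. Tyrobp had 9, 40 and 80 UMIs (lowest, median and highest) per Crect macrophage and 8, 33 and 65 UMIs per wild-type macrophage. Every macrophage held all 4 genes, and most held them well above the limits of the gate. The sum of the C1q UMIs was 9 in the lowest Crect macrophage and 20 in the next, with a median of 91 and a highest value of 319. In wild-type macrophages it was 21 in the lowest and 26 in the next, with a median of 94 and a highest value of 278. On the other side of the limit, 3 other Crect cells and 14 other wild-type cells held 2 C1q UMIs, while 6446 other Crect cells and 7454 other wild-type cells held none. A few cells failed the other criteria: 1 Crect cell and 2 wild-type cells with 3 C1q UMIs held no Tyrobp UMI, 1 Crect cell with 21 C1q UMIs was left out for 6 Epcam UMIs, and 1 wild-type cell was left out for its mitochondrial share.

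The C1q genes lie side by side on the minus strand of mouse chromosome 4 (GENCODE vM21, GRCm38), with C1qb at chr4:136880129-136886187, C1qc at chr4:136889804-136893065 and C1qa at chr4:136895917-136898803. Tyrobp lies on the plus strand at chr7:30413760-30417585. Promoter sequences are shown for C1qb and C1qc, which were both present in every macrophage, and for Mrc1, Pf4, Ctss and Cx3cr1, macrophage genes described below that were not used to choose the cells. They run from 250 bases before to 50 bases after the start that RefSeq gives on GRCm38.p6, 5′ to 3′ on the gene's own strand. That start differs from the outer end of the GENCODE gene for C1qb, C1qc, Mrc1 and Cx3cr1, and the Cx3cr1 window lies wholly inside the GENCODE gene. Capitals mark GAGGAA or its reverse complement TTCCTC, a core to which ETS factors such as PU.1 are known to bind. The windows are chr4:136886151-136886450 (minus) for C1qb, chr4:136892865-136893164 (minus) for C1qc, chr2:14229164-14229463 (plus) for Mrc1, chr5:90772185-90772484 (plus) for Pf4, chr3:95526536-95526835 (plus) for Ctss and chr9:120068247-120068546 (minus) for Cx3cr1. RefSeq promoters of C1qa and Tyrobp were not used here.
C1qb: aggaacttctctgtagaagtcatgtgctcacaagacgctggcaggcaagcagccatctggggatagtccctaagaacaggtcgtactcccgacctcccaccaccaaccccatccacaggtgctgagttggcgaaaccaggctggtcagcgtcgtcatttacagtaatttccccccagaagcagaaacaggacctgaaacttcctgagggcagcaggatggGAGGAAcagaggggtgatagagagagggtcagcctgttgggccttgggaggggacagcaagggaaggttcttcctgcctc
C1qc: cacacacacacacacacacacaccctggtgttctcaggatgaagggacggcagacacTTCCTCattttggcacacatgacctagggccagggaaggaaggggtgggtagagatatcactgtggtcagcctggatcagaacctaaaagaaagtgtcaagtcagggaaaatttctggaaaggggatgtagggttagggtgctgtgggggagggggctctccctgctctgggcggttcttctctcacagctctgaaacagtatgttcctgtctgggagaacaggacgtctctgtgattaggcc
Mrc1: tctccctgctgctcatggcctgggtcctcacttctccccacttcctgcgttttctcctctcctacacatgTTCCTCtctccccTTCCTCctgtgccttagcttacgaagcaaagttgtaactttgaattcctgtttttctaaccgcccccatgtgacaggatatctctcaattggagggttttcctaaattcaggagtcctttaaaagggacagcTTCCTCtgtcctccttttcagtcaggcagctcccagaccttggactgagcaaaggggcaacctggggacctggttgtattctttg
Pf4: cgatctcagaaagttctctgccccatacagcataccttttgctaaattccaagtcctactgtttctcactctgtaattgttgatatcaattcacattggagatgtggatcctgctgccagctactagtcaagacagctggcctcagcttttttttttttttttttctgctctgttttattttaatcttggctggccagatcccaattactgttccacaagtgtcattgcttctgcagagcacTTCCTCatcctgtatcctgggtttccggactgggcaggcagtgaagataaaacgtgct
Ctss: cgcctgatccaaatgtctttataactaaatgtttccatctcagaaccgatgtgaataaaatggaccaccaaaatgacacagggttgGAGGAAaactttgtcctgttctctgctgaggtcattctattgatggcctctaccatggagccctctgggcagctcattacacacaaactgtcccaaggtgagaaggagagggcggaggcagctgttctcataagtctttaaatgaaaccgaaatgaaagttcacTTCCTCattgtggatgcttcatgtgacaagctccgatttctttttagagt
Cx3cr1: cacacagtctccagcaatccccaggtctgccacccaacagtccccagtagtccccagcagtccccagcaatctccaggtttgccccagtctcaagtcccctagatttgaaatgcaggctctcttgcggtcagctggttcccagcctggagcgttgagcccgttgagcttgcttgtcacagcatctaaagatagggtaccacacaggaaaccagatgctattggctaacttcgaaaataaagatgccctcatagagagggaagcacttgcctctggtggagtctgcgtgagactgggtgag
Counted from the RefSeq start, the core begins at -30 in C1qb, at -193 in C1qc, at -180, -167 and -35 in Mrc1, at -8 in Pf4 and at -164 and 1 in Ctss, and the Cx3cr1 window holds no match. Of 27025 genes with a RefSeq promoter of this length, 28.3% held the core on either strand. Among genes called higher in macrophages in the test against other cells described below, 33.0% of 1387 promoters held it, and among genes called lower 24.6% of 1231. Of the 100 genes with the largest called increase and 20 or more UMIs in each library's macrophages, 75 had a promoter, and 46 of those (61.3%) held the core. The longer motif GAGGAAGT (ACTTCCTC on the other strand), which contains the core and is present in C1qc, Pf4 and Ctss, was in 3.28% of all promoters, 6.20% of those of genes called higher, 1.54% of those of genes called lower and 11 of the same 75 (14.7%). These matches describe letters in a window.

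The label macrophage was checked against markers outside the gate. Csf1r, the receptor for the growth factor on which macrophages depend, was found in all 25 Crect and all 37 wild-type macrophages at 422 CPM in Crect and 456 CPM in wild-type, against 0.780 CPM and 0.597 CPM in the other cells of those libraries. Cx3cr1, the fractalkine receptor, had 8, 26 and 61 UMIs (lowest, median and highest) per Crect macrophage and 0, 17 and 39 UMIs per wild-type macrophage. Adgre1, which encodes the F4/80 antigen, stood at 119.7 CPM in Crect and 153 CPM in wild-type macrophages, the phagosome protein gene Cd68 at 139 CPM in Crect and 197 CPM in wild-type macrophages and the leukocyte gene Ptprc (CD45) at 93.2 CPM in Crect and 171 CPM in wild-type macrophages, and all of these were at or under 2.43 CPM in the other cells of either library. Aif1, which encodes the actin-binding protein Iba1, was at 372 CPM in Crect and 532 CPM in wild-type macrophages. Csf1r and Cx3cr1, which played no part in choosing the cells, were thus present in nearly all of them. Other markers outside the gate were in fewer cells. Ptprc was in 22 of 25 Crect and 33 of 37 wild-type macrophages, Mrc1 in 17 Crect and 30 wild-type macrophages and Pf4 in 14 and 25. For Adgre1, Cd68 and Aif1 the levels are sums and give no share of cells. After every cell was thinned to 3000 UMIs to even out depth, a Csf1r UMI was left in 64% of Crect and 70.3% of wild-type macrophages, against 0.0915% of Crect and 0.177% of wild-type mesenchymal cells, which should lack it. The same shares for Cx3cr1 were 88% of Crect and 91.9% of wild-type macrophages and 0.146% of Crect and 0.145% of wild-type mesenchymal cells. Before thinning, all 25 Crect macrophages and 36 of the 37 wild-type macrophages held a Cx3cr1 UMI.

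Pf4, a chemokine gene best known from platelets and named among the markers of these cells, behaved differently from the others. It had 71 UMIs in Crect and 88 UMIs in wild-type macrophages, or 98.8 CPM in Crect and 135 CPM in wild-type, against 14.9 CPM in other Crect cells and 107 CPM in other wild-type cells. It was found in 14 of 25 Crect and 25 of 37 wild-type macrophages. The other cells of the wild-type library therefore held nearly as high a Pf4 level as its macrophages, and the log2 fold change was 2.99 in the Crect library and 0.54 in the wild-type library. The fit over both libraries gave 1.67 (SE 0.19, adjusted p = 4.64e-18 by edgeR's quasi-likelihood test, described below), but the wild-type library alone lay under 2-fold. Pf4 stood at 6.13 CPM in Crect and 1464 CPM in wild-type endothelial cells. The endothelial gate, described below, set no limit on megakaryocyte and platelet genes, and whether it took in such cells was not tested. Those genes summed to 14.8 CPM in other Crect cells and 55.4 CPM in other wild-type cells. Markers of megakaryocytes and platelets gave 6 UMIs in the Crect macrophages and 6 UMIs in the wild-type macrophages over 10 genes, with Itga2b, Gp9, Gp1ba, Gp1bb, Gp6 and Itgb3 at 0 in both.

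**Figure D1:**
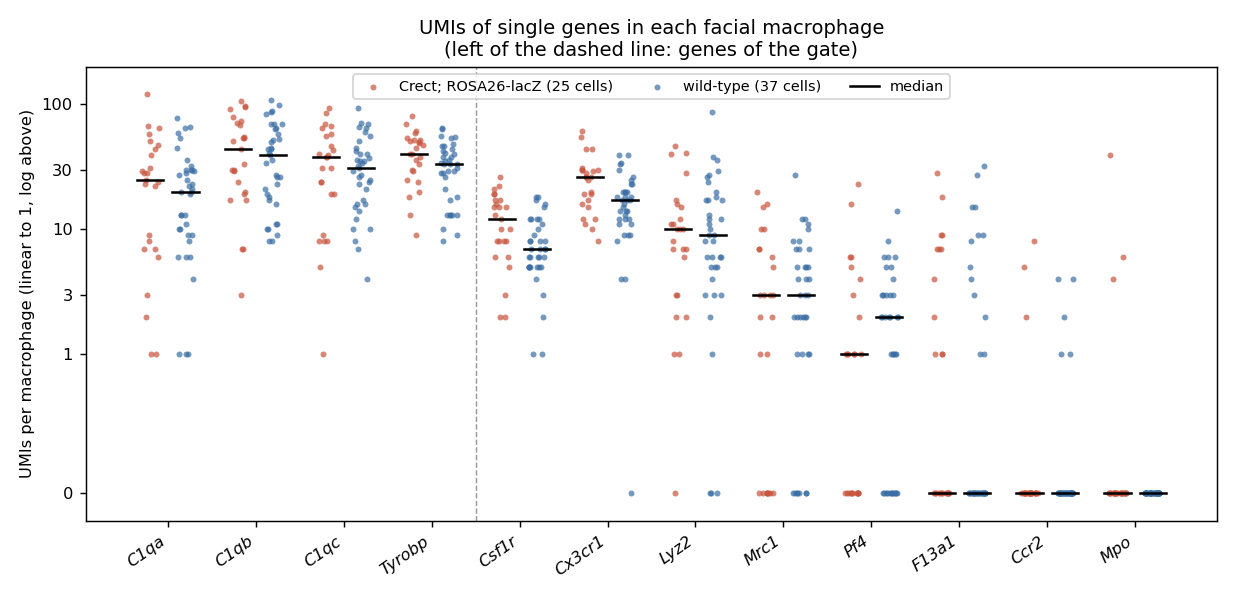
UMIs per macrophage (symmetric log axis) for 12 genes in 25 Crect and 37 wild-type cells, each point a cell and each black bar the median; genes left of the dashed line chose the cells. The C1q genes, Tyrobp, Csf1r and Cx3cr1 fill nearly every cell, while F13a1, Ccr2 and Mpo are at 0 in most and high in a few.

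Markers of most other cell types were low in the macrophages, but the granulocyte and monocyte lists stood above their level in other cells. All 6 mast cell genes were at 0, a limit of 4.17 CPM for 3 UMIs in the Crect sum, and lymphoid genes gave 2 UMIs in each library. Endothelial markers gave 15 UMIs in Crect and 21 UMIs in wild-type macrophages, and markers of the ectoderm gave 17 UMIs in Crect and 8 UMIs in wild-type macrophages. Markers of blood progenitors summed to 54.3 CPM in Crect and 39.8 CPM in wild-type macrophages, with Flt3 at 0. Of 5 osteoclast genes only Acp5 was detected. Mesenchyme markers were at a median of 0.0168% of a Crect macrophage's UMIs and 0.0234% of a wild-type macrophage's, against 0.223% and 0.246% in the other cells of those libraries, and no macrophage reached the median of the other cells. The granulocyte list summed to 231 CPM in Crect and 44.3 CPM in wild-type macrophages, against 15.6 CPM and 12.8 CPM in the other cells. Its members Elane, S100a8, S100a9, Ngp and Camp were at 0 in the macrophages of both libraries. The monocyte list summed to 195 CPM in Crect and 74.9 CPM in wild-type macrophages, against 6.68 CPM and 10.2 CPM in the other cells. Chil3 was at 0 in the macrophages of both libraries. Globin genes made up a median of 0.151% of the UMIs of Crect macrophages and 0.409% of those of wild-type macrophages, against 0.177% and 0.377% in other cells, and the part of free RNA in these low levels was not tested.

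Macrophages made up 0.374% of Crect cells (95% Clopper-Pearson interval 0.242% to 0.551%) and 0.468% of wild-type cells (0.330% to 0.644%), and these intervals overlap. A small group of cells with 5 or more Tyrobp UMIs but no more than 2 C1q UMIs, singled out after its values were seen, made up 0.179% of Crect cells and 0.177% of wild-type cells (12 and 14 cells). The Cre transcript of the transgene gave 1 UMI in the 25 Crect macrophages (1.39 CPM), against 63.8 CPM in the 448 Crect cells with 5 or more Epcam UMIs. The lacZ transcript gave no UMI in the Crect macrophages (95% interval 0 to 5.13 CPM), against 17.6 CPM in the Epcam cells and 3.41 CPM in all other cells. Cre in the macrophages was thus far below its level in the Epcam cells (95% interval in macrophages 0.0352 to 7.75 CPM). The lacZ interval of the macrophages includes the level of all other cells, so these cannot be told apart at this depth.

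To describe the expression programme, UMIs were summed per library over macrophages and over all other cells, and the sums were compared with edgeR's quasi-likelihood test with the library as a block. A gene was called where the Benjamini-Hochberg adjusted p was under 0.05 and the change at least 2-fold. Of 15233 genes tested, 1807 (11.9%) were called higher in macrophages and 1667 (10.9%) lower, 22.8% in all, and the median log2 fold change over all genes was -0.28. Setting the 2293 genes with no UMI on a side to a floor of 3 UMIs moved that median to 0.08. DESeq2, with its own scaling, called 1577 genes higher and 839 lower around a median of -0.16, so the balance of directions over all genes depends on the tool. The p-values rest on a spread between sums from 2 libraries that was pooled over all genes, and not on spread between embryos. A gene whose libraries disagree, such as Pf4 above, can therefore still have a small adjusted p. Of 400 tested genes in 17 lists of macrophage functions and general processes, 237 were higher and 23 lower. The lists were drawn up knowing that these are macrophages, so this count describes them and is no separate evidence of what they are.

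**Figure D2:**
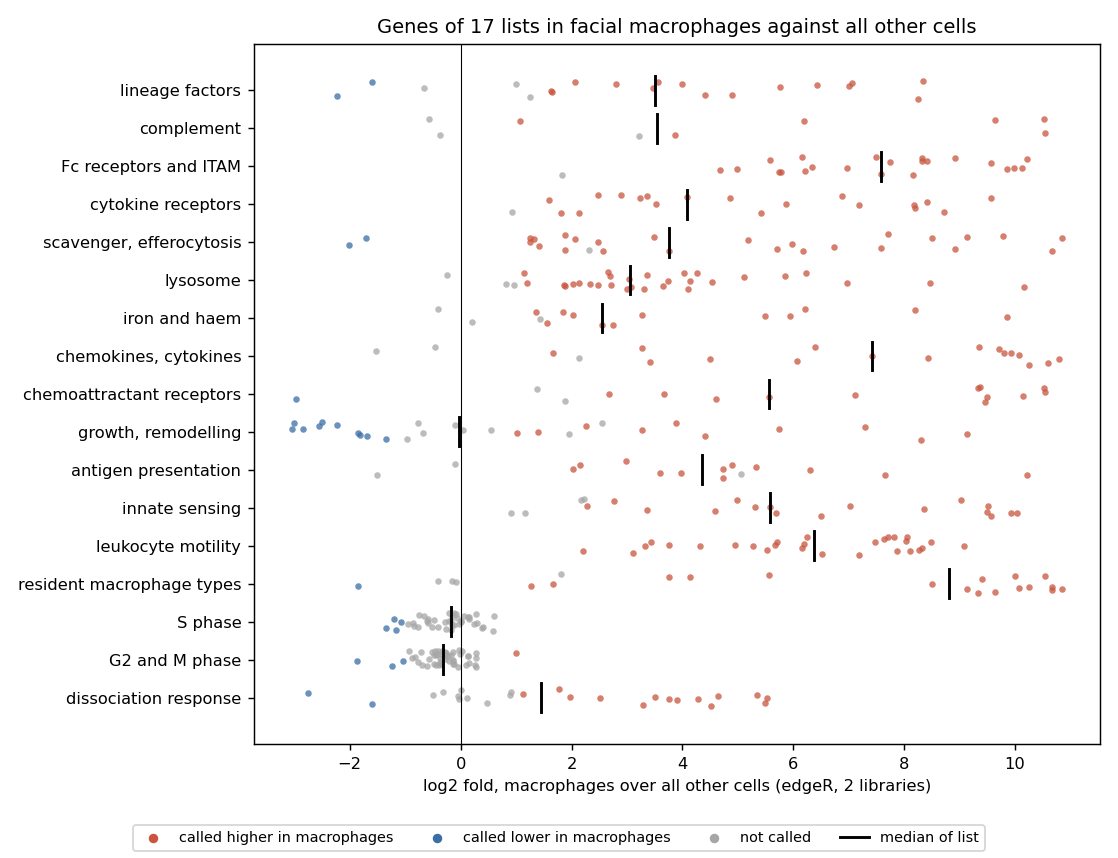
Log2 fold change of macrophages over all other cells for the genes of 17 lists (each point a gene, red called higher, blue called lower, grey not called, bar the median); genes at 0 UMIs in macrophages are not plotted. Motility, Fc and ITAM, complement, lysosome and chemokine genes lie almost entirely above 0, growth and remodelling genes lie on both sides, and the cell cycle lists lie around 0.

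Among 20 transcription factors of the myeloid lineage, 15 were higher and 2 lower. Spi1 led the list with 379.9 CPM in Crect and 350.2 CPM in wild-type macrophages, against 1.62 CPM and 1.11 CPM in the other cells of those libraries (log2 fold change 8.33, SE 0.20). Maf, which favours macrophage maturation over self-renewal, followed at 409 CPM in Crect and 502 CPM in wild-type macrophages, against 2.42 CPM and 1.27 CPM in the other cells of those libraries (log2 fold change 8.24, SE 0.20). Both were present in nearly every cell, Spi1 in 25 of 25 Crect and 35 of 37 wild-type macrophages and Maf in 24 of 25 Crect and 35 of 37 wild-type macrophages. The interferon regulatory factors Irf8 and Irf5, which direct myeloid differentiation and inflammatory genes, stood at 160.0 CPM in Crect and 237 CPM in wild-type macrophages for Irf8 and 70.97 CPM in Crect and 65.8 CPM in wild-type macrophages for Irf5. Cebpa, a factor of granulocyte and monocyte commitment, had 29.2 CPM in Crect and 41.3 CPM in wild-type, and its inflammatory relative Cebpb 128 CPM in Crect and 44.3 CPM in wild-type. The blood-forming factor Runx1 reached 84.9 CPM in Crect and 128 CPM in wild-type macrophages, against 14.2 CPM and 22.4 CPM in the other cells of those libraries (log2 fold change 2.8).

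Ikzf1, Tfec, Mitf, Nr1h3, Lyl1, Fli1 and Zeb2 were also higher, with log2 differences of 4.89, 6.43, 3.47, 4.0, 3.56, 1.62 and 1.65. Zeb2, known to maintain tissue macrophage identity, was the most abundant of these at 209 CPM in Crect and 332 CPM in wild-type macrophages, but other cells held it too (83.8 CPM in other Crect cells and 119 CPM in other wild-type cells). The factors that were lower were Id3, an inhibitor of basic helix-loop-helix factors, at 117 CPM in Crect and 214 CPM in wild-type macrophages against 813 CPM and 988 CPM in the other cells of those libraries (log2 fold change -2.23, SE 0.17, adjusted p = 6.97e-37), and Klf4, at 5.57 CPM in Crect and 12.2 CPM in wild-type macrophages against 33.8 CPM and 29.5 CPM in the other cells of those libraries (log2 fold change -1.60, SE 0.37, adjusted p = 1.12e-04). Tal1, Batf3 and Myb were not called. Myb, a factor of definitive blood progenitors on which yolk sac-derived macrophages do not depend in mice, had no UMI in Crect and 2 UMIs in wild-type macrophages, and Gfi1 had none in either.

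Beyond C1q, the macrophages carried receptors for complement fragments, and 6 of 10 tested complement genes were higher and none lower. C3ar1 and C5ar1, receptors for the complement fragments C3a and C5a, stood at 234 CPM in Crect and 350.2 CPM in wild-type macrophages for C3ar1 and 47.3 CPM in Crect and 77.99 CPM in wild-type macrophages for C5ar1, against no more than 0.247 CPM in the other cells of either library (log2 fold change 10.53, SE 0.23 for C3ar1 and 10.53, SE 0.84, for C5ar1). C5ar1 had 5 UMIs in other Crect cells and 7 UMIs in other wild-type cells, so the size of its fold is uncertain. Cfp, which stabilises the alternative pathway convertase, was at 25.05 CPM in Crect and 38.2 CPM in wild-type macrophages. The central component C3 gave 3 UMIs in Crect and 4 UMIs in wild-type macrophages, C2 gave 3 UMIs in Crect and 2 UMIs in wild-type macrophages and was not called, and C4b, Cfd, Itgax, Vsig4 and Cd55 gave none. C1q chose the cells, so its level beside the few UMIs of C2, C3 and C4b, which act after it, is a description.

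Of 23 tested Fc receptor and ITAM pathway genes, 22 were higher and none lower, with a median log2 difference of 7.57. Fcer1g, the signalling chain shared by Fc receptors, reached 1149 CPM in Crect and 1596 CPM in wild-type macrophages, and the IgG receptor genes Fcgr3 and Fcgr1 319 CPM in Crect and 447 CPM in wild-type macrophages for Fcgr3 and 128 CPM in Crect and 147 CPM in wild-type macrophages for Fcgr1. Trem2, a lipid-sensing receptor that signals through Tyrobp, had 252 CPM in Crect and 369 CPM in wild-type macrophages (log2 fold change 10.21, SE 0.23), and Lilrb4a, an inhibitory receptor, had 48.7 CPM in Crect and 97.9 CPM in wild-type (log2 fold change 10.13, SE 0.70). Lilrb4a had 4 UMIs in other Crect cells and 16 UMIs in other wild-type cells, so the size of its fold is uncertain. Cytokine receptor genes were higher in 19 of 21 tested and lower in none. Il6ra, the interleukin 6 receptor, was at 48.7 CPM in Crect and 65.8 CPM in wild-type macrophages, and Csf1r showed a log2 difference of 9.57 (SE 0.22). Flt3, a receptor of early blood progenitors and dendritic cells, gave no UMI.

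Of the genes for scavenging and for clearing dying cells, 24 of 27 tested were higher and 2 lower, with a median log2 difference of 3.76. Apoe, a lipid carrier, was among the most abundant transcripts at 4950.1 CPM in Crect and 8906 CPM in wild-type macrophages, against 38.1 CPM and 45.2 CPM in the other cells of those libraries (log2 fold change 7.57). The mannose receptor gene Mrc1 (CD206; chr2:14229392-14332057) had 114 UMIs in Crect and 166 UMIs in wild-type macrophages, 159 CPM in Crect and 254 CPM in wild-type, against 0.143 CPM and 0.151 CPM in the other cells (log2 fold change 10.66, SE 0.24), yet it was found in only 17 of 25 Crect and 30 of 37 wild-type macrophages. It had 0, 3 and 20 UMIs (lowest, median and highest) per Crect macrophage and 0, 3 and 27 UMIs per wild-type macrophage. Dab2, an endocytic adaptor, and Stab1, a scavenger receptor, stood at 399 CPM in Crect and 598 CPM in wild-type macrophages for Dab2 and 206 CPM in Crect and 258 CPM in wild-type macrophages for Stab1. Dock2, which activates Rac in leukocytes, showed a log2 difference of 7.71 (SE 0.71).

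Of the receptors that bind phosphatidylserine on dying cells through the bridging proteins Gas6 and Pros1, Mertk was at 20.9 CPM in Crect and 44.3 CPM in wild-type macrophages and Axl at 32.01 CPM in Crect and 30.6 CPM in wild-type macrophages. Tyro3 was lower in macrophages, at 4.17 CPM in Crect and 1.53 CPM in wild-type against 12.2 CPM and 10.3 CPM in the other cells of those libraries (log2 fold change -1.70, SE 0.67, adjusted p = 0.0384), a call lost with DESeq2 (adjusted p = 0.248) and without the library block (adjusted p = 0.0766). Mfge8, another bridging protein, was also lower, at 9.74 CPM in Crect and 13.8 CPM in wild-type against 51.1 CPM and 61.7 CPM in the other cells of those libraries (log2 fold change -2.02, SE 0.30, adjusted p = 4.89e-10). Gas6 itself was present at 114 CPM in Crect and 147 CPM in wild-type macrophages. Cd163, Lyve1, Cd209b, Cd209f and Cd209g, scavenger and lectin genes of several adult tissue macrophages, gave no UMI in the macrophages.

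Lysosome genes were higher in 29 of 32 tested and lower in none, with a median log2 difference of 3.06. The cathepsin genes Ctsb and Ctsd stood at 1509 CPM in Crect and 2237 CPM in wild-type macrophages for Ctsb and 925 CPM in Crect and 1164 CPM in wild-type macrophages for Ctsd, the protease inhibitor Cst3 at 1401 CPM in Crect and 1651 CPM in wild-type macrophages and the asparaginyl protease Lgmn at 480.1 CPM in Crect and 720.2 CPM in wild-type macrophages. Ctss (chr3:95526786-95556403), a cathepsin that processes antigen, was low elsewhere, at 333 CPM in Crect and 694 CPM in wild-type macrophages against 0.462 CPM and 0.549 CPM in the other cells of those libraries (log2 fold change 10.17, SE 0.22). Lyz2, the lysozyme gene of myeloid cells, had 0, 10 and 46 UMIs (lowest, median and highest) per Crect macrophage and 0, 9 and 87 UMIs per wild-type macrophage (log2 fold change 8.47).

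Genes of iron and haem handling, by which macrophages recycle iron, were higher in 12 of 15 tested and lower in none. Hmox1, which opens the haem ring, reached 312 CPM in Crect and 928 CPM in wild-type macrophages, against 13.9 CPM and 15.1 CPM in the other cells of those libraries (log2 fold change 5.49). The iron exporter ferroportin, Slc40a1, was at 139 CPM in Crect and 237 CPM in wild-type macrophages, and Slc11a1, which pumps divalent metals out of the phagosome, at 48.7 CPM in Crect and 81.04 CPM in wild-type macrophages (log2 fold change 9.85). Slc11a1 had 11 UMIs in other Crect cells and 9 UMIs in other wild-type cells, so the size of its fold is uncertain. The transporter gene Slco2b1 showed a log2 difference of 8.19. Ferritin transcripts were the most abundant of the list, Ftl1 at 14801 CPM in Crect and 19032 CPM in wild-type macrophages and Fth1 at 6491 CPM in Crect and 7974 CPM in wild-type macrophages. After thinning, Hmox1 was seen in 32% of Crect and 43.2% of wild-type macrophages, against 3.99% of Crect and 4.87% of wild-type cells of other types. Hpx, which binds haem in plasma, gave no UMI.

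Chemokine and cytokine genes were higher in 16 of 19 tested and lower in none, with a median log2 difference of 7.43. Ccl3 (chr11:83647844-83649355) and Ccl4 (chr11:83662584-83664683), neighbouring genes whose products attract monocytes, had 161 UMIs in Crect and 324 UMIs in wild-type macrophages for Ccl3 and 148 UMIs in Crect and 482 UMIs in wild-type macrophages for Ccl4. Their levels were 224 CPM in Crect and 495 CPM in wild-type for Ccl3, against 0.334 CPM and 0.605 CPM in the other cells of those libraries, and 206 CPM in Crect and 737 CPM in wild-type for Ccl4, against 0.159 CPM and 0.446 CPM in the other cells of those libraries (log2 fold change 10.80, SE 0.23). Both were uneven between cells, with Ccl4 found in 15 of 25 Crect and 28 of 37 wild-type macrophages. Ccl6 and Ccl9, mouse chemokines of myeloid cells, stood at 70.97 CPM in Crect and 199 CPM in wild-type macrophages for Ccl6 and 100.2 CPM in Crect and 147 CPM in wild-type macrophages for Ccl9. Ccl2 and Ccl12, ligands of Ccr2, were at 11.1 CPM in Crect and 51.99 CPM in wild-type macrophages for Ccl2 and 19.5 CPM in Crect and 122 CPM in wild-type macrophages for Ccl12. Ccl24, an eosinophil attractant, had 24 UMIs in Crect and 28 UMIs in wild-type macrophages (log2 fold change 10.26, SE 1.02). Other Crect cells held 7 UMIs of it and other wild-type cells 2 UMIs, so the size of this fold is uncertain.

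Smaller amounts were seen of Cxcl16 (18.1 CPM in Crect and 53.5 CPM in wild-type macrophages) and of Cxcl2 (10 UMIs in Crect and 10 UMIs in wild-type macrophages). Tgfb1, a cytokine with wide use in development, was at 159 CPM in Crect and 168 CPM in wild-type macrophages against 18.2 CPM and 22.3 CPM in the other cells of those libraries (log2 fold change 3.27). The inflammatory cytokine genes Il1b and Tnf were detected at 34.8 CPM in Crect and 41.3 CPM in wild-type macrophages for Il1b and 9.74 CPM in Crect and 9.17 CPM in wild-type macrophages for Tnf, and Il18 at 16.7 CPM in Crect and 26 CPM in wild-type macrophages. Il15 and Il16 were also higher, with log2 differences of 3.42 and 4.5. Cxcl1, Cxcl12 and Ppbp were not called, Ccl7, Cxcl10, Il1a, Il1rn and Osm gave between 0 and 6 UMIs per library and were not tested, and Ccl5, Ccl8, Il6 and Il10 gave none.

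The receptors for such signals were led by Cx3cr1 (chr9:119901616-120069879), at 896 CPM in Crect and 985 CPM in wild-type macrophages against 1.11 CPM and 0.875 CPM in the other cells of those libraries (log2 fold change 10.14, SE 0.22), and 12 of 17 tested chemoattractant receptor genes were higher and 1 lower. The UDP receptor P2ry6, which triggers phagocytosis in microglia, had 141 CPM in Crect and 174 CPM in wild-type and was found in 24 of 25 Crect and 33 of 37 wild-type macrophages (log2 fold change 9.49). P2ry12 and P2ry13, receptors for ADP, stood at 47.3 CPM in Crect and 58.1 CPM in wild-type macrophages for P2ry12 and 23.7 CPM in Crect and 30.6 CPM in wild-type macrophages for P2ry13. Ccr1 was at 94.6 CPM in Crect and 119 CPM in wild-type macrophages. Ccr2, the receptor that calls monocytes out of the blood, was found in 3 of 25 Crect and 5 of 37 wild-type macrophages at 20.9 CPM in Crect and 18.3 CPM in wild-type, so most macrophages held none. S1pr1 and Cmklr1 were higher with log2 differences of 2.68 and 4.6, and Ccrl2 with 3.67. Cmklr1 and Ccrl2 had few UMIs, so the sizes of their folds are uncertain. Their Crect over wild-type macrophage ratios were 2.50 (95% interval 0.742 to 10.8) for Cmklr1 and 6.37 (0.818 to 287) for Ccrl2. Ackr3, a decoy receptor for Cxcl12, was lower, at 4.17 CPM in Crect and 4.59 CPM in wild-type against 43.1 CPM and 38.8 CPM in the other cells of those libraries (log2 fold change -2.97, SE 0.42). Cxcr2 and P2ry14 were not called, Cxcr3 gave no UMI in Crect and 2 in wild-type macrophages, and Ccr7, Cxcr4, Ackr1, Fpr1 and Fpr2 gave none.

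Growth factor and matrix genes were split, with 10 of 28 tested higher and 10 lower and a median log2 difference of -0.03. Sepp1, which carries selenium, reached 895 CPM in Crect and 1294 CPM in wild-type macrophages against 27.7 CPM and 20.9 CPM in the other cells of those libraries (log2 fold change 5.74). F13a1, the A subunit of clotting factor XIII, had 131 CPM in Crect and 200.3 CPM in wild-type but was found in only 12 of 25 Crect and 13 of 37 wild-type macrophages (log2 fold change 9.13, SE 0.24). Spp1, encoding osteopontin, was rarer still, in 4 of 25 Crect and 5 of 37 wild-type macrophages at 58.4 CPM in Crect and 58.1 CPM in wild-type. Igf1 was called over both libraries (log2 fold change 1.02), but its level was 87.7 CPM in Crect and 261 CPM in wild-type macrophages against 105 CPM in other Crect cells and 85.9 CPM in other wild-type cells, so the difference came from the wild-type library (log2 1.80) and was near 0 in the Crect library (0.04). Nrp1, a receptor for vessel and nerve guidance, and Lgals3, a lectin of phagocytes, were higher with log2 differences of 2.26 and 7.29.

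Among the 10 genes that were lower, Igf2 stood at 16.7 CPM in Crect and 30.6 CPM in wild-type macrophages against 86.5 CPM and 237 CPM in the other cells of those libraries, and Pdgfa, which signals to mesenchyme, at 4.17 CPM in Crect and 10.7 CPM in wild-type macrophages against 60.3 CPM and 79.2 CPM in the other cells of those libraries (log2 fold change -3.01, SE 0.33). Pdgfc, Wnt5a, Mmp2 and Mmp14 fell by 2.84, 2.23, 1.81 and 2.55 on the log2 scale, and Vegfc, Fn1 and Sparc by 1.68, 1.34 and 1.86. Fn1 lay under 2-fold in the wild-type library alone (log2 -0.69), as did Vegfc (-0.93). Hbegf had no UMI in Crect and 1 in wild-type macrophages, against 7.04 CPM and 7.22 CPM in the other cells of those libraries (adjusted p = 0.0257), a call lost with DESeq2 (adjusted p = 0.213). Vegfa, Vegfb, Pdgfb, Timp2, Nrp2 and Bmp2 were not called. Mmp9 gave no UMI and Mmp12 a single UMI in 1 wild-type cell.

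Antigen presentation was present for class I and nearly absent for class II. B2m, the light chain of class I molecules, stood at 1034 CPM in Crect and 1291 CPM in wild-type macrophages and the immunoproteasome subunit gene Psmb8 at 104 CPM in Crect and 125 CPM in wild-type macrophages (log2 fold change 7.66). Cd86, which costimulates T cells, had 44.5 CPM in Crect and 84.1 CPM in wild-type (log2 fold change 10.22, SE 0.80). With 9 UMIs of Cd86 in other Crect cells and 6 UMIs in other wild-type cells, the size of this fold is uncertain. The class II chaperone gene Cd74 was at 19.5 CPM in Crect and 27.5 CPM in wild-type macrophages, while H2-Aa gave 1 UMI in Crect and none in wild-type macrophages, and H2-Eb1 and the class II regulator Ciita gave none. In all 12 of 16 tested genes of this list were higher and none lower. Genes of innate sensing were higher in 17 of 21 tested and lower in none, led by Ly86, a partner of the toll-like receptor relative Cd180, at 245 CPM in Crect and 393 CPM in wild-type macrophages (log2 fold change 9.57). Tlr7, a sensor of RNA, was at 25.05 CPM in Crect and 29.1 CPM in wild-type macrophages, and the DNA sensor Tlr9 gave no UMI. Of genes for leukocyte motility and the actin skeleton, all 28 tested were higher, with a median log2 difference of 6.38; Coro1a, for example, stood at 732 CPM in Crect and 569 CPM in wild-type macrophages.

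The list of genes that mark particular resident macrophages of adult tissues was also mostly higher, in 17 of 22 tested with 1 lower. Genes enriched in microglia, the macrophages of brain, were present: Fcrls stood at 259 CPM in Crect and 456 CPM in wild-type macrophages, Gpr34 at 55.7 CPM in Crect and 97.9 CPM in wild-type macrophages, Crybb1 at 9.74 CPM in Crect and 41.3 CPM in wild-type macrophages and Siglech at 9.74 CPM in Crect and 24.5 CPM in wild-type macrophages. Olfml3 was higher with a log2 difference of 1.26. Sall1, the factor that sets microglial identity, was not called and gave 3 UMIs in Crect and 2 UMIs in wild-type macrophages, and Tmem119 was not called, at 57.1 CPM in Crect and 50.5 CPM in wild-type against 85.2 CPM in other Crect cells and 86.02 CPM in other wild-type cells. Sparc was lower, as given above, and Slc2a5 was not called. All 6 microglia markers were detected, with a summed level of 387 CPM in Crect and 633 CPM in wild-type macrophages.

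Markers of macrophages at brain borders, in skin and in serous cavities were likewise mixed in. Ms4a7 stood at 65.4 CPM in Crect and 144 CPM in wild-type macrophages and Ms4a6c at 452 CPM in Crect and 408 CPM in wild-type macrophages. Folr2, a folate receptor of resident macrophages, gave 9 UMIs in Crect and 12 UMIs in wild-type macrophages in 3 and 6 cells of those libraries. Timd4, a phosphatidylserine receptor of long-lived resident macrophages, gave 2.78 CPM in Crect and 27.5 CPM in wild-type and lay in just 1 Crect and 2 wild-type cells. Cbr2 gave no UMI in Crect and 1 in wild-type macrophages and was not called, Ly6c2, a monocyte gene, 1 UMI in Crect and none in wild-type macrophages. The macrophages thus held members of the sets that mark several adult types, with Sall1 near 0 and Lyve1 and Cd163 at 0.

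Few cell cycle genes were called, where 11.9% of all genes tested were called higher and 10.9% lower. Of 42 S phase genes tested, none was higher and 4 were lower, with a median log2 difference of -0.18, and of 52 G2/M genes 1 was higher (Gas2l3, log2 1.01) and 3 lower, among them Psrc1 (-1.86) and Cdc20 (-1.24), with a median of -0.31. Both medians lay close to the -0.28 of all genes, but below the 0.08 of all genes with empty sides at the floor. The share of S phase genes called lower was near that of all genes. On simulated data the test recovered 52% of 2-fold changes, so genes not called may still differ. After thinning to 3000 UMIs, Mki67 was seen in 36% of Crect and 40.5% of wild-type macrophages, against 25.98% of Crect and 36.9% of wild-type cells of other types, and Top2a in 36% of Crect and 45.9% of wild-type macrophages, against 51.6% of Crect and 59.8% of wild-type cells of other types. Proliferation transcripts were thus found in a sizeable share of the macrophages. Of 26 immediate early and stress genes that rise during tissue dissociation, 14 were higher and 2 lower, with a median log2 difference of 1.44 (1.87 with empty sides at the floor). Fos stood at 433 CPM in Crect and 517 CPM in wild-type macrophages against 27.6 CPM and 18.6 CPM in the other cells of those libraries, Egr1 at 119.7 CPM in Crect and 162 CPM in wild-type macrophages, Atf3 at 48.7 CPM in Crect and 94.8 CPM in wild-type macrophages and Junb at 118 CPM in Crect and 245 CPM in wild-type macrophages. The heat shock genes Hspa8, Hspe1, Hsp90aa1, Dnajb1 and Hsph1 were not called, and Hspa1b gave no UMI. The part of dissociation in the chemokine and cytokine levels was not tested.

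A comparison with endothelial cells asked which differences remained against another non-mesenchymal population, 131 Crect and 242 wild-type cells with 3 or more UMIs over at least 2 of the 4 endothelial genes Cdh5, Kdr, Cldn5 and Pecam1. Of 10594 genes tested, 1174 (11.1%) were called higher in macrophages and 1018 (9.61%) lower, 20.7% in all, with a median log2 fold change of -0.03. Of the 365 tested genes of the 17 lists, 205 were higher and 18 lower. Spi1 and Maf again stood out (log2 fold change 7.63, SE 0.21 for Spi1 and 7.82 for Maf), as did Apoe (7.45) and Slc40a1 (5.22). Ctss and Lyz2 had 2 UMIs each in Crect endothelial cells, against 9 UMIs of Ctss and 56 UMIs of Lyz2 in wild-type endothelial cells (0.396 CPM of Lyz2 in Crect and 7.91 CPM in wild-type endothelial cells), so no fold is given for them. Trem2, Fcgr1, Il6ra, Mrc1, Slc11a1, Ccl3 and Ccl4 had between 0 and 3 UMIs in the endothelial cells of either library, so no fold is given. For Mrc1, for example, these were 0 UMIs in Crect and 1 UMI in wild-type endothelial cells, against 114 UMIs in Crect and 166 UMIs in wild-type macrophages. Lysosome genes were higher in 29 of 32 and motility genes in 27 of 28.

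Stab1 was higher by a log2 difference of 1.6 (SE 0.18, adjusted p = 2.56e-04 by edgeR's quasi-likelihood test), at 206 CPM in Crect and 258 CPM in wild-type macrophages against 94.2 CPM in Crect and 74.2 CPM in wild-type endothelial cells. Dab2 and Sepp1 were higher by 3.77 and 3.30. Among the 18 list genes lower than in endothelium were Cd93, an endothelial and myeloid surface glycoprotein, with a log2 difference of -4.69, Mfge8 with -3.23, Id3 with -1.90 and Klf4 with -1.45, and 8 of the 18 were growth and remodelling genes. The Klf4 call was lost with DESeq2 (adjusted p = 0.247) and without the library block (adjusted p = 0.0541). Tgfb1, Nrp1 and Klf2, each called higher against all other cells, were not called against endothelium, with 159 CPM in Crect and 168 CPM in wild-type macrophages against 212 CPM in Crect and 228 CPM in wild-type endothelial cells for Tgfb1. S phase genes gave no higher and 1 lower of 42, and G2/M genes none higher and 3 lower of 52. Pf4 was not called (log2 -0.64, adjusted p = 0.798) and went opposite ways in the libraries, 4.08 in Crect and -3.34 in wild-type.

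**Figure D3:**
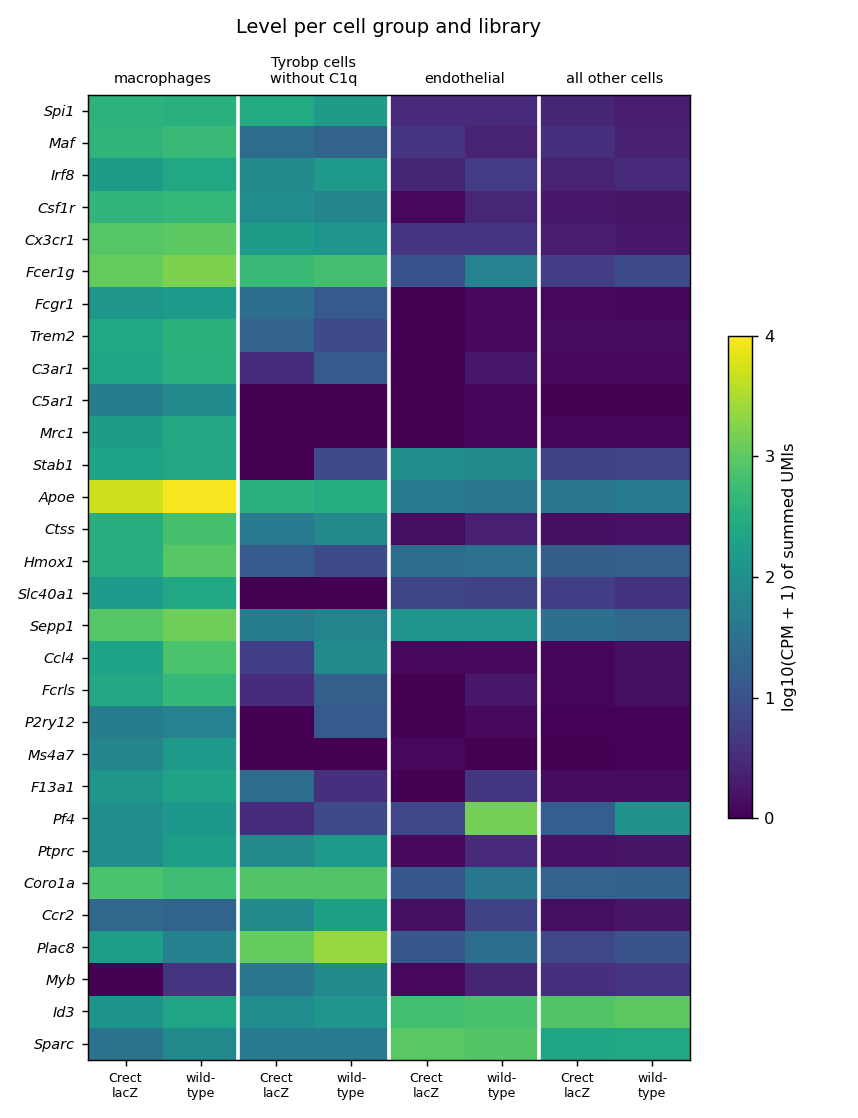
Level of 30 genes as log10(CPM + 1) in summed macrophages, Tyrobp cells without C1q, endothelial cells and all other cells, each with the Crect library left of the wild-type library. Mrc1, Ms4a7, Maf and Fcrls are higher in macrophages than in the Tyrobp cells without C1q, while Spi1, Ptprc and Coro1a are high in both. Pf4 is highest in the wild-type cells of the endothelial gate, which set no limit on platelet genes.

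The Tyrobp cells without C1q give a nearby population to read the macrophages against, as a description, since their gate used C1q and Tyrobp and was set after values were seen. They were deep, with median depths of 33235 UMIs in the 12 Crect cells and 26052 UMIs in the 14 wild-type cells, and a gate of 5 Tyrobp UMIs favours deep cells. Spi1 was at 279 CPM in those of the Crect and 163 CPM in those of the wild-type library and the leukocyte gene Laptm5 at 355 CPM in those of the Crect and 422 CPM in those of the wild-type library, both within 3-fold of the macrophages. Maf was at 24.7 CPM in those of the Crect and 17.8 CPM in those of the wild-type library, Csf1r at 83.2 CPM in those of the Crect and 68.7 CPM in those of the wild-type library and Cx3cr1 at 155 CPM in those of the Crect and 125 CPM in those of the wild-type library, all well under the macrophages of the same libraries. Mrc1, Ms4a7, C5ar1 and Folr2 gave no UMI in them. Myb and Ccr2 ran the other way, with Myb at 38.2 CPM in those of the Crect and 81.4 CPM in those of the wild-type library and Ccr2 at 80.9 CPM in those of the Crect and 188 CPM in those of the wild-type library, both above the macrophages. Their marker sums were mixed, at 1207 CPM in Crect and 2588 CPM in wild-type cells for monocyte genes, 708 CPM and 1013 CPM for granulocyte genes and 461 CPM and 491 CPM for progenitor genes, so no cell type name is given to them.

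Within the macrophages, cells with more C1q also held more lysosome RNA. C1q ranged over 215 to 14399 CPM in Crect cells and 1189 to 20679 CPM in wild-type cells. The summed lysosome genes ranged over 4062 to 31008 CPM in Crect and 6165 to 33086 CPM in wild-type cells, and G2/M genes over 791 to 9611 CPM in Crect and 793 to 12480 CPM in wild-type cells. Across the 25 Crect cells and the 37 wild-type cells, the rank correlation of lysosome genes with C1q was 0.87 in Crect and 0.78 in wild-type, that of Apoe 0.87 and 0.77, of B2m 0.78 and 0.75 and of Tyrobp 0.76 and 0.70. Tyrobp and C1q both chose the cells. Not every macrophage gene followed C1q. Cx3cr1 was at 0.55 in Crect but -0.04 in wild-type, and Mrc1 at 0.23 and 0.27. The monocyte gene Plac8 ran against C1q, at -0.64 in Crect and -0.42 in wild-type. G2/M genes also ran against C1q, at -0.58 in Crect and -0.45 in wild-type, and S phase genes at -0.30 and -0.31. These correlations describe cells of the same library whose depths differ, and depth itself ran with them: total UMIs correlated with C1q at -0.41 in Crect and -0.25 in wild-type, and with G2/M genes at 0.49 and 0.29. All of these levels are shares of the same total.

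**Figure D4:**
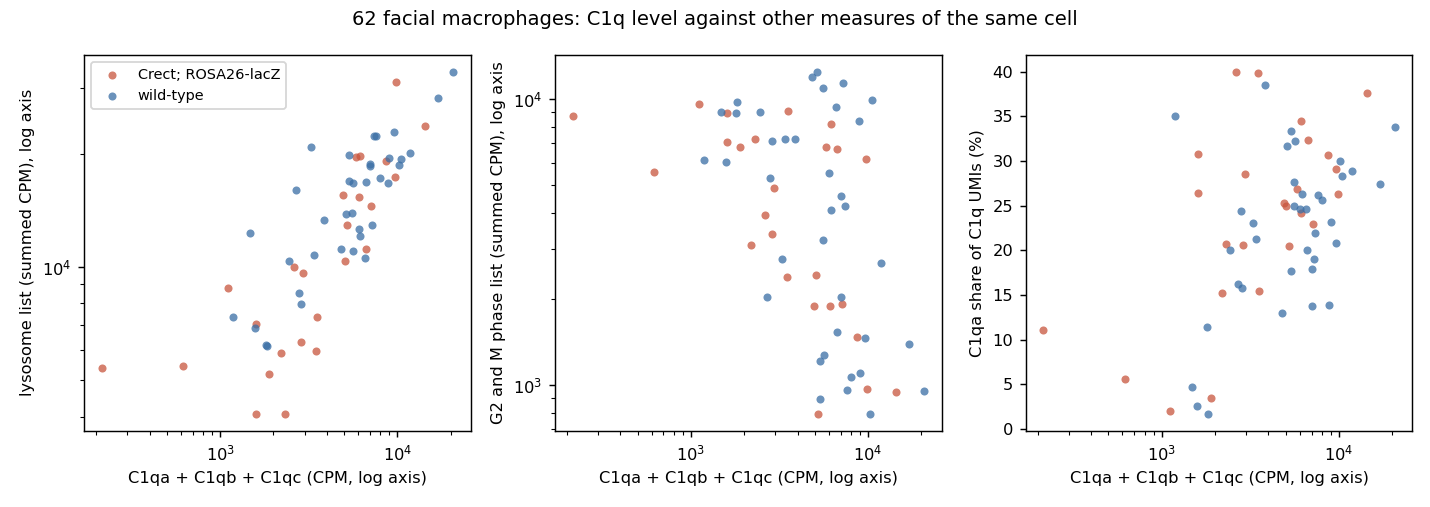
Each point is a macrophage (25 Crect, 37 wild-type), with summed C1q CPM set against lysosome genes in CPM, G2/M genes in CPM and the share of C1q UMIs that were C1qa, in percent. Cells with much C1q hold much lysosome RNA and less G2/M RNA. The cells with the smallest C1qa share lie at low C1q, where some cells with a large share also lie.

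Ranked by the variance over the mean of thinned counts, taking the lower of both libraries' values, the most variable of 1720 genes were Actb at 22.5, Apoe at 21.0, Ftl1 at 18.03, Mt1 at 15.9, Tmsb4x at 11.1, Hmox1 at 8.36, Fth1 at 8.0, Malat1 at 6.06, Mt2 at 4.06 and Xist at 4.04, where the median gene had 0.918 and counting alone gives about 1. Actin and thymosin genes of the cell skeleton (Actb, Tmsb4x), metal-binding metallothioneins (Mt1, Mt2), iron and haem genes (Ftl1, Fth1, Hmox1) and Apoe were thus among the most variable at this depth. Thinned to 2000 UMIs, Mt2 stood at rank 17 with 2.41 and Xist at rank 11 with 2.80, while the other 8 genes held ranks 1 to 8. Xist, transcribed from the inactive X chromosome, varied in libraries that pool several embryos. High-level genes have more room to exceed counting noise, so this rank leans towards them.

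C1qa made up a median of 25.3% of C1q UMIs in Crect macrophages (2% to 40%) and 23.2% in wild-type macrophages (1.69% to 38.5%). A few cells had far less. The Crect cells with shares of 2%, 5.56% and 11.1% also held UMIs of Mpo, a granule enzyme of early myeloid cells (4, 39 and 6), and of F13a1 (18, 7 and 9), and these were the only macrophages with Mpo. A Crect cell at 3.53% held 8 Ccr2 UMIs and 7 Mrc1 UMIs. The cell at 11.1% was the one with 9 C1q UMIs, the lowest of all. In wild-type macrophages the lowest shares were 1.69%, 2.63%, 4.76% and 11.4%, with Ccr2 at 4, 0, 0 and 1 UMIs. C1q in the 4 Crect cells ran from 215 to 1896 CPM, against a median of 3539 CPM over all Crect macrophages, and in the 4 wild-type cells from 1479 to 1828 CPM, against a median of 5629 CPM. C1qa is itself part of the C1q sum, so a low share and a low sum are not independent. Low C1q also occurred at large shares, at 1189 CPM and 35.1% in a wild-type cell and 1594 CPM and 30.8% in a Crect cell. The 4 Crect cells were also deep, with 41842 to 57925 UMIs each. Doublets with other myeloid cells were not removed, and their part in these cells was not tested.

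Between the libraries the macrophages were set side by side with no test. Of 3569 genes with 50 or more UMIs over both macrophage sums, 50 (1.4%) were at least 2-fold higher in Crect macrophages and 188 (5.27%) at least 2-fold lower, 6.67% in all, around a median ratio of 0.897. In the other cells of the same libraries 29 of these genes were at least 2-fold higher in Crect and 47 at least 2-fold lower. Of these, 14 higher and 21 lower genes were past the limit in macrophages as well, so a part of the difference is shared by the whole libraries. With the macrophage sums scaled by the TMM method, which moves the log2 ratio by 0.18, the counts became 95 higher and 108 lower, so the balance of directions depends on the scaling. At a minimum of 100 UMIs they were 26 higher and 64 lower of 1909 genes.

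The largest ratios upward were Gm10260 (77.8, 95% interval 30.1 to 287), Gm10709 (38.5), Gm10320 (33.7) and Gm8797 (7.40), all names of predicted genes or pseudogenes whose ratios in the other cells were 48.9, 41.0, 10.2 and 16.2, and Prtn3 (7.36, interval 4.02 to 14.7), encoding a granule protease, at 1.25 in the other cells. Reads of such gene copies may be split between near-identical sequences, and whether this bears on the ratios was not tested. Prtn3 had 97 UMIs in 9 Crect macrophages and 12 UMIs in 3 wild-type macrophages, and a single Crect cell held 40 of them. Without that cell its ratio was 4.70 (interval 2.49 to 9.63), a value chosen to be computed after the data were seen. The largest ratios downward were the histone genes Hist1h2ae (0.0910), Hist1h1e (0.136) and Hist1h1b (0.149), at 0.337, 0.161 and 0.145 in the other cells, then Ccl12 (0.159, interval 0.0833 to 0.283) and AI607873 (0.175, interval 0.0935 to 0.307). Ccl12 lay in 6 Crect macrophages (14 UMIs) and 11 wild-type macrophages (80 UMIs), and a single wild-type cell held 33 of them, without which its ratio was 0.265 (interval 0.135 to 0.490). AI607873 lay in 8 Crect and 25 wild-type macrophages.

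Of the 244 genes of the functional lists with 50 or more UMIs, 3 were at least 2-fold higher in Crect macrophages and 27 at least 2-fold lower, around a median ratio of 0.791. Over all 3569 genes 1.4% were higher and 5.27% lower, so the share of list genes higher was near that of all genes and the share lower was above it. These list counts are without TMM scaling, which changed the balance over all genes. The 3 higher genes were Ncf4, a subunit of the phagocyte oxidase (ratio 3.43, interval 2.12 to 5.77), Cebpb (2.89, interval 1.88 to 4.55) and Plcg2, a phospholipase of immune receptor signalling (2.43, interval 1.39 to 4.43). With fewer UMIs, the lipopolysaccharide receptor gene Cd14 (5.92, interval 2.49 to 17.1) and the inflammasome gene Nlrp3 (5.10, interval 1.94 to 16.9) were also higher in Crect macrophages. Among the lower genes, Ccl4 had 206 CPM in Crect and 737 CPM in wild-type macrophages, Hmox1 312 CPM in Crect and 928 CPM in wild-type, Igf1 87.7 CPM in Crect and 261 CPM in wild-type and Ctss 333 CPM in Crect and 694 CPM in wild-type. These examples were chosen after their values were seen. Csf1r, Cx3cr1 and Spi1 were close between libraries, at 422 CPM in Crect and 456 CPM in wild-type for Csf1r, 896 CPM in Crect and 985 CPM in wild-type for Cx3cr1 and 379.9 CPM in Crect and 350.2 CPM in wild-type for Spi1. The Crect macrophages were also deeper per cell, and the 3 cells with Mpo were Crect cells. With 1 pool of embryos per genotype these differences have no replicate error.

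**Figure D5:**
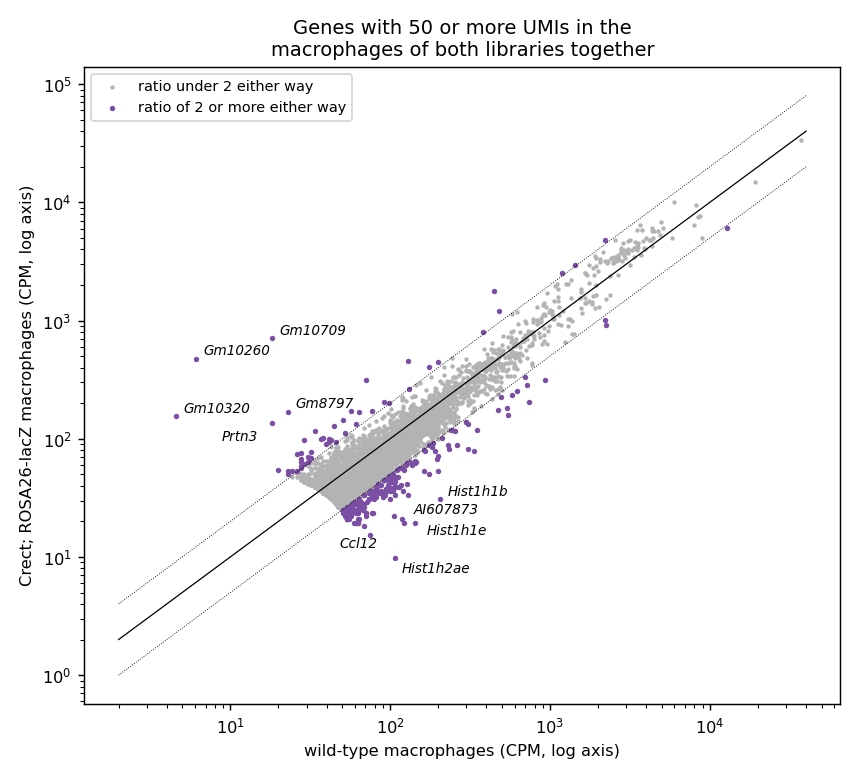
Summed CPM of Crect macrophages against wild-type macrophages for 3569 genes with 50 or more UMIs (log axes), dotted lines at a 2-fold difference, with the named genes labelled. Most genes lie between the lines, more lie beyond the lower line than the upper (188 against 50), and the predicted genes and histone genes lie farthest out.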

How the data were processed

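Per the labels, libraries were made with 10x Genomics 3' v2 chemistry. Cell Ranger 2.0 and the mm10 build are given in the submitters' processing notes. The authors deposited raw UMI counts per gene and cell for 27998 genes. From these counts, cells were gated with Python 3.11.15, UMIs were summed per library and cell group, and the sums were tested with edgeR 4.0.16 in R 4.3.3 (TMM scaling, filterByExpr, quasi-likelihood test, library as a block, Benjamini-Hochberg adjustment over all genes tested). DESeq2 1.42.0, other scalings, filters and gates were tried as alternatives. The gate genes C1qa, C1qb, C1qc, Tyrobp and Epcam were not tested. On data simulated from these sums, 100 genes above a minimum expected count were changed by each fold. The test recovered 52% of 2-fold and 84% of 4-fold changes among 15020 genes tested for macrophages against other cells. Against endothelial cells it recovered 53% and 88% among 10215 genes tested. Recovery needed an adjusted p under 0.05 and the right sign, but not the 2-fold limit of a call, so it does not measure the recovery of calls. The common coefficient of variation between sums was 0.118 against other cells and 0.125 against endothelial cells. Shares of cells were also computed after thinning each cell to 3000 UMIs, and intervals are 95% and exact.

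For macrophages against other cells and against endothelial cells, the rule named in each list the genes with the largest called change, up to 2 per direction, with the same sign in both libraries and 20 or more UMIs on the higher side in each. Against other cells it chose Spi1, Maf, Id3, Klf4, C5ar1, C3ar1, Trem2, Lilrb4a, Csf1r, Il6ra, Mrc1, Dock2, Mfge8, Tyro3, Ctss, Lyz2, Slc11a1, Slco2b1, Ccl4, Ccl24, Cx3cr1, P2ry6, Ackr3, F13a1, Spp1, Hbegf, Pdgfa, Cd86, Psmb8 and Ly86. Between libraries they were the 5 largest ratios each way with 50 or more UMIs, and for variation the 10 largest variance-to-mean ratios. Lineage factor, chemokine, receptor and resident-type genes were described member by member, and other names were chosen after their values were seen. The members and the lists were chosen with earlier results of these data known. Gene coordinates are from GENCODE vM21 (GRCm38) and promoters from RefSeq (GRCm38.p6). A few genes are not reported here.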

Additional observations from a re-analysis of the deposited data

How the results depend on the processing

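No named gene changed sign under DESeq2, RLE scaling, no filter on low counts, no library block or a stricter gate, nor, against other cells, without the Epcam or the mitochondrial limit. Without the low-count filter, 1234 genes were higher and 1304 lower against endothelial cells, so the larger count changed side, and without the mitochondrial limit both counts against other cells were 1752. Against other cells, DESeq2 called 1577 genes higher and 839 lower, the second under the 1667 of edgeR, and against endothelial cells 824 higher and 498 lower. Without the library block (no pairing of macrophages with the other cells of their library), 1785 genes were higher and 1369 lower against other cells, and 1133 higher and 928 lower against endothelial cells. No gene was called in the opposite direction under any of these. Between libraries, 26 genes were higher and 64 lower in Crect macrophages at a minimum of 100 UMIs, and 95 higher and 108 lower with TMM scaling, which also turned the median log2 ratio from -0.16 to 0.03. Of the named genes, Tyro3 and Hbegf against other cells and Klf4 against endothelial cells lost their calls, as given with their values, and the cause was not tested. Shares of macrophages stayed between 0.359% and 0.389% in the Crect and between 0.468% and 0.477% in the wild-type library under the other gates. With 62 macrophages, and 25 in the Crect library, genes of a few CPM were at the limit of detection, and with 2 libraries no embryo-to-embryo spread was measured.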
